A study of Mus musculus with 4 samples.

Results

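Late condensing spermatids were the cells in which a set of 4 genes (Car2, Spem2, Paqr5 and Gm498) stood highest among 7 germ-cell gene sets. Each cell's score for a set was its mean log1p of counts per 10000 over the set's genes, standardised over all kept cells, and a member had this set as its highest score and above 1. The rule found 4205 members among 57727 kept cells of mouse testis. The sets run from early spermatocytes (A), pachytene spermatocytes (B) and late spermatocytes (C) through early and late round spermatids (D, E) and elongating spermatids with transition proteins (F) to the late condensing set (G). Members numbered 968 of 13543 cells in HFD 1, 1007 of 14355 in HFD 2, 1204 of 15248 in ND 1 and 1026 of 14581 in ND 2. The members were chosen by expression, so their difference from other cells is given below as a description, without a test.

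Late spermatids are haploid germ cells that reshape into sperm. During this step histones are replaced by transition proteins and then by protamines, transcription stops as the chromatin closes, and the cell works from messenger RNA stored earlier. The tail is assembled, the mitochondria are wrapped around its middle piece, and most of the cytoplasm is shed and taken up by the neighbouring Sertoli cells.

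The libraries were droplet single-cell RNA libraries of dissociated testis, with 2 libraries per diet. The mice ate either a high-fat diet (HFD) or a normal one (ND). The question of the series is how the testicular cell types differ between the diets. Strain, genotype, age, composition and length of the diets, and the number of mice behind a library are not given in the sources used here. The p-values therefore measure the spread between these libraries, which may be technical.

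The libraries held 13561 to 15290 barcodes, where the labels state about 13000 recovered cells per channel, and 143748262 to 154221188 unique molecular identifiers (UMIs). Summed over members there were 4750036 to 5397726 UMIs per library. Scrublet called 24, 36, 47 and 43 members doublets in HFD 1, HFD 2, ND 1 and ND 2, or 2.48% to 4.19%, and they were kept unless stated. Libraries shared 337 kept barcodes in all pairs together, of which 3 were members in both libraries.

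The label was checked against genes that the rule did not use. All 10 independent markers of late spermatids were detected, and their summed level was 128878 to 130683 CPM (UMI counts scaled to the same total in each library) in HFD members and 138894 to 142845 CPM in ND members. In the early spermatocyte set (set A) the same sum was 6722 CPM, and in the neighbouring transition-protein set (set F) it was 97502 CPM. Each of the 10 except the protamine gene Prm1 had its highest mean level in the members among the gated germ-cell groups and the somatic comparators. The comparators were 1516 cells with at least 5 UMIs of Leydig markers, and 508 Sertoli and 341 macrophage cells that were chosen by their markers after the data had been seen. The defining round spermatid markers Acrv1 and Spaca1 were low in members, at 76.8 CPM ± 4.73 (SD, n = 4 libraries) and 98.7 CPM ± 5.22, against 609 CPM and 899 CPM in late round spermatids (set E). The synaptonemal complex gene Sycp3 had 94.8 CPM ± 10.7 in members and 715 CPM in early spermatocytes. The 5 spermatocyte markers outside the sets, Sycp3 among them, summed to 279 CPM in members and 2216 CPM in early spermatocytes. Their sum in members was above that in set F (169 CPM) and set E (225 CPM), and the source of this RNA was not tested. Of the blood and vessel markers, all 5 lymphocyte genes (46.5 to 47.2 CPM summed in HFD and 50.02 to 50.7 in ND), all 3 endothelial genes and 2 of 4 erythroid genes had a UMI in members, with Hba-a1 and Hba-a2 at 0.

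The gate genes gave every member at least 2 detected genes, with 235 members showing 2, 1749 showing 3 and 2221 showing all 4. Car2, a carbonic anhydrase that interconverts carbon dioxide and bicarbonate, was detected in 96.3% of members. Gm498, a gene model, was detected in 93.3%. Spem2, a relative of the neighbouring spermatid maturation gene Spem1, was detected in 90.6%, and Paqr5, a membrane progestin receptor, in 67.0%. These shares are read against a background whose source was not tested. In early spermatocytes, which should lack these genes, Car2 was detected in 19.4%, Gm498 in 13.9%, Spem2 in 15.7% and Paqr5 in 17.6%, at a median of 3123 UMIs per cell against 3733 UMIs in members. Prm1 and Prm2 were detected in 99.7% and 99.5% of early spermatocytes and Prm2 in 99.7% of the Leydig comparator cells (median 6082 UMIs), so that detection alone carried no information for the protamines and only their level did.

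Paqr5 differed from the other gate genes in its place along the series of stages. Its mean level was 874 CPM ± 57.4 in members and 864 CPM ± 33.0 in set F, where it was detected in 94.6% of cells. Car2 stood at 426 CPM in set F and 1141 CPM in members, Gm498 at 331 and 855 CPM, and Spem2 at 244 and 694 CPM. These are the values that chose the members, and they are not tested. Around the limit of the gate, the 708 cells scoring 0.5 to 1 had a median of 1847 UMIs, 2.07 gate genes per cell and 11030 CPM of Prm2. The 527 members scoring 1 to 1.5 had a median of 2653 UMIs, 2.71 gate genes and 28041 CPM of Prm2. The tail genes Smcp and Odf1 did not rise across the limit. They had 13639 and 1600 CPM in the 708 cells below it and 13379 and 1590 CPM in the 527 members. In the 775 members scoring 1.5 to 2 they had 7768 and 971 CPM.

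The most abundant transcripts of the members came from genes that pack sperm chromatin. The 13 genes of that list with at least 20 CPM summed to 141780 CPM in members and 148390 CPM in set F. A UMI of a 3′ end counts a molecule, so levels were not divided by gene length. Prm2 was the most abundant transcript, at 65442 and 64642 CPM in the HFD libraries and 71384 and 69857 CPM in the ND libraries on the plain CPM scale. Prm1 followed with 42097, 42634, 48852 and 46372 CPM in the same order of libraries. Both HFD libraries lay below both ND libraries for each gene. The 10 most abundant genes held 18.3% ± 0.841 of all member UMIs (SD, n = 4), against 16.8% ± 0.447 in set F and 4.36% ± 0.0340 in set E.

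Prm1 (ENSMUSG00000022501) and Prm2 (ENSMUSG00000038015) lie side by side on the minus strand of chromosome 16, followed by Prm3 and the transition-protein gene Tnp2. GENCODE M21 places Prm1 at chr16:10796326-10805839 and Prm2 at chr16:10791380-10796134 on GRCm38. The 250 bases before the start of each gene's RefSeq transcript are shown because these are the most abundant transcripts of the members and the pair whose order reverses between stages. They come from RefSeq on GRCm38.p6, chr16:10796824-10797073 for Prm1 and chr16:10792106-10792355 for Prm2, and are written on the strand of the gene.
Prm1: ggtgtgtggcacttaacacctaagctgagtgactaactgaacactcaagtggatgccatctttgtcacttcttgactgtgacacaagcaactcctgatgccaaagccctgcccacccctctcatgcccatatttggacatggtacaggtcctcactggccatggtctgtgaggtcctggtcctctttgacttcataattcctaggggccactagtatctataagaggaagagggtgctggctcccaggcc
Prm2: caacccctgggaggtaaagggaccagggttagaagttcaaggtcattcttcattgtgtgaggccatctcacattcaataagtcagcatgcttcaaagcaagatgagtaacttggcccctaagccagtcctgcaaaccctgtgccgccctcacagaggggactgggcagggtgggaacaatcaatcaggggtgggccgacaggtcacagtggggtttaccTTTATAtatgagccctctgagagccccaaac
The capitals mark a match to the TATA box letters TATAAA, searched on both strands, which in Prm2 was found as TTTATA at position -31 from the start. That motif was present in 12.4% of 32851 promoter windows of the same length. The cyclic AMP response element TGACGTCA, present in 1.55% of windows, and its part TGACG, present in 17.8% and contained in the longer motif, were not in either window. Only these exact letters were searched, so a missing match does not show that a gene lacks such an element. The Prm1 window holds tgacttca and tataag, which are close to the searched letters but were not counted. Their share over all windows was not computed.

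Across the gated groups, the protamine and transition-protein genes changed places. Prm1 stood at 51177 CPM ± 2376 in set F and 44988 CPM ± 3201 in members, while Prm2 stood at 35612 CPM ± 591 and 67831 CPM ± 3297. Prm1 was thus the higher of the pair in set F and Prm2 in members. The transition-protein genes, whose products hold the chromatin between histones and protamines, were lower in members: Tnp1 stood at 20415 CPM in set F and 9593 CPM in members, and Tnp2, a gene of the set F gate, at 32271 CPM and 12819 CPM. Prm3, a gene of the same cluster with an acidic product, had 2161 CPM and 2308 CPM.

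**Figure D1:**
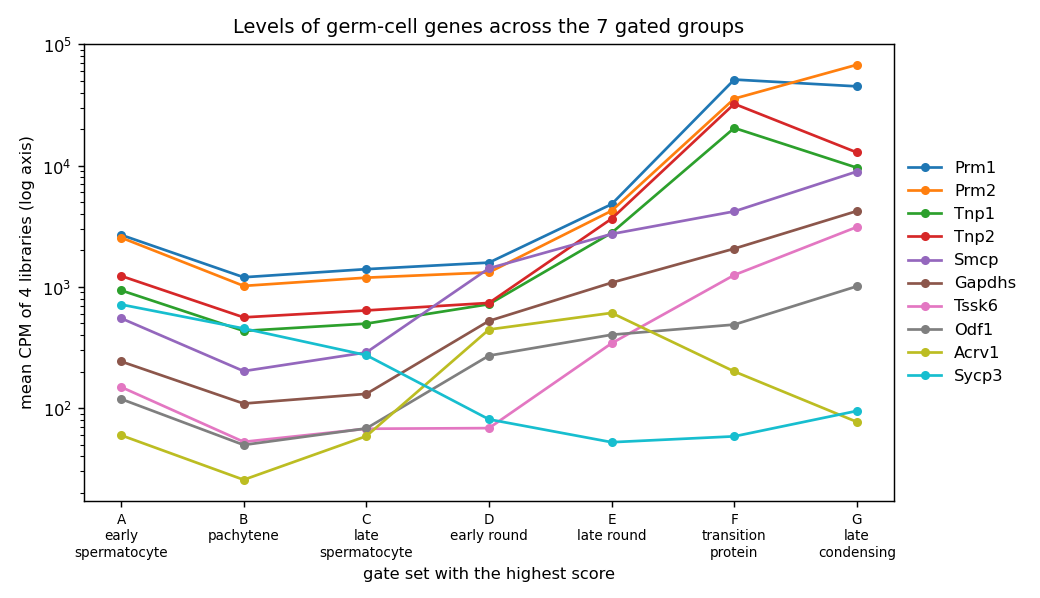
Mean level (CPM, log axis) over the 4 libraries of 10 germ-cell genes in the 7 gated groups, from early spermatocytes (A) to late condensing spermatids (G). Prm2 overtakes Prm1 in the last group, Tnp1 and Tnp2 are lower in group G than in group F, and Smcp, Gapdhs, Tssk6 and Odf1 are highest in group G.

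Several abundant genes of the tail and its energy supply were highest in members, although the full lists given below went both ways. Smcp, a protein of the mitochondrial sheath, had 8931 CPM ± 418 in members and 4188 CPM ± 109 in set F. Gapdhs, the sperm form of glyceraldehyde-3-phosphate dehydrogenase bound to the fibrous sheath, had 4217 CPM ± 249 and 2065 CPM ± 39.8. Odf1, an outer dense fibre protein, had 1010 CPM ± 53.8 and 488 CPM ± 28.7. The ratios of members over set F were 2.04 to 2.13 for these genes. Tssk6, a testis kinase needed for chromatin condensation, had a ratio of 2.49, with 3115 CPM ± 207 against 1252 CPM ± 37.7. Oaz3, the antizyme of spermatids that restrains polyamine synthesis, had 2746 CPM ± 110 and 1239 CPM ± 44.8, and Spem1, needed for removal of the cytoplasm from the head, had 868 CPM ± 51.5 and 397 CPM ± 12.0. Akap4 and Fscb, fibrous sheath proteins, had 1369 and 251 CPM in members against 959 and 126 CPM in set F.

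Next to the chromatin genes, the most abundant transcripts were Dbil5 (11074 CPM ± 692), a testis relative of the acyl-CoA binding protein, Smcp, Gstm5 (7631 CPM ± 245), a glutathione transferase, Gm5617 (7511 CPM) and Gsg1 (7181 CPM), a germ-cell membrane protein. Pebp1, Odf2, Fabp9, Crisp2, 1700027A15Rik and Eif1 had 4378 to 5934 CPM. Fabp9 is the testis fatty acid binding protein and Crisp2 an acrosome and tail protein, and Eif1 helps to choose start codons. The RNA 1700027A15Rik, with 4414 CPM, spans Tnp1 on the opposite strand (chr1:72984844-73025507 and chr1:73015074-73015909). The counting is not stated to use strand, so reads of that pair may not be fully separated.

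By gene list, members and set F were compared as a description. The following counts are genes with at least 20 CPM in either group that lay higher or lower in members in all 4 libraries. Among all 5245 such genes, 2260 were higher and 2377 lower, with a median log2 ratio of -0.01. Of 22 acrosome and gamete fusion genes, 17 were lower and 4 higher (median -1.16), with Acrv1 and Izumo1 among the lower. Izumo1, the sperm protein that binds the egg, had 87.7 CPM in set F and 31.3 CPM in members. Of 26 tail genes 14 were higher and 10 lower (median 0.16), and of 14 mitochondrial sheath genes 5 were higher and 6 lower (median -0.08).

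Of 20 glycolysis genes 13 were higher and 5 lower in members (median 0.42). Within this list the isozymes differed: Gapdhs and the testis form of phosphoglycerate kinase, Pgk2 (1299 against 763 CPM), were higher, while the testis lactate dehydrogenase Ldhc was lower, with 4367 CPM ± 318 against 6303 CPM ± 105. Of 20 genes of mRNA storage and translation control 14 were higher and 4 lower (median 0.25). Ybx2, a Y-box protein that holds stored messenger RNA, had 847 CPM in members and 653 CPM in set F. Of 14 lipid genes 11 were higher and 3 lower (median 0.50), and of 14 antioxidant genes 8 were higher and 4 lower (median 0.40). Of 25 genes of head shaping and cytoplasm removal 9 were higher and 14 lower (median -0.15), and of 22 ubiquitin and proteasome genes 9 were higher and 12 lower (median -0.25). Of 15 testis kinases and phosphatases 6 were higher and 8 lower, of 13 ion and pH genes 6 and 7, of 6 steroid and lipid receptors 1 and 4, of 18 chaperones 10 and 6, and of 6 apoptosis genes 5 and 1.

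All 8 mitochondrially encoded genes at this level were higher in members, with a median log2 ratio of 0.85 and a summed level of 2531 CPM against 1335 CPM in set F. Their level in the Leydig comparator was above both. Transcripts from the X chromosome made up 1.05% ± 0.0301 of member UMIs, 1.56% ± 0.0168 in set F and 1.502% ± 0.0218 in set E.

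Of the genes with the largest ratio of members over the higher of sets E and F, Azin2 led. Azin2, an antizyme inhibitor that acts on the polyamine pathway opposite to Oaz3, had 868, 721, 763 and 782 CPM in HFD 1, HFD 2, ND 1 and ND 2 and 242 CPM in set F, a ratio of 3.24. The diets overlapped. The other 14 had ratios of 2.48 to 2.96. Among them were Tppp2 (1852 CPM), of a family that binds tubulin, and Osbp2 (1145 CPM), an oxysterol-binding protein. Clpb (1397 CPM), a mitochondrial disaggregase, and Csnk1g2 (1550 CPM), a casein kinase, were others. So were Tbc1d20 (662 CPM), which promotes GTP hydrolysis by a small GTPase of vesicle transport, and Neurl1a (110 CPM), a ubiquitin ligase. Apoe was also among them with 184 CPM ± 15.4, but its level in the macrophage comparator was 12873 CPM, and its part in members from other cells was not tested.

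The members were not uniform. In 1313 of the 4205 the set F score was above 1 as well, and in 2892 it was 1 or lower. These 1313 cells had a median of 5321 UMIs, 69821 CPM of Prm1 and 55164 CPM of Prm2. The 2892 cells had 3235 UMIs, 25250 CPM of Prm1 and 77854 CPM of Prm2, so that the Prm1 level differed more between them than between sets F and G. Smcp followed Prm2, with 5926 CPM in cells above 1 and 11292 CPM in the rest, and Tssk6 had 1938 and 4045 CPM. Paqr5 ran the other way, with 1314 and 525 CPM, as did Tnp1, with 19487 and 1750 CPM. The cells were split by the set F score, which holds Tnp2, so these values describe the split and are not tested.

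The share of members differed little between the diets. It was 7.15% (exact Clopper-Pearson 95% interval 6.72 to 7.59, counting error only) in HFD 1, 7.01% (6.60 to 7.45) in HFD 2, 7.90% (7.47 to 8.34) in ND 1 and 7.04% (6.63 to 7.46) in ND 2. ND 1 stood above the other libraries, and HFD 1 lay above ND 2, so the diets overlapped. The log2 ratio of HFD over ND was -0.08 (SE 0.082; adjusted p 0.390 by Benjamini-Hochberg, from edgeR's test on cell numbers). Without ND 2 it was -0.16 with an adjusted p of 0.0132, and without ND 1 it was 0.01 with an adjusted p of 0.875 (edgeR). Wherever a library is left out, its diet keeps 1 library, which is assumed to vary like those of the other diet. In the same test the 3 earlier spermatid sets were lower in HFD (set F -0.16, edgeR adjusted p 0.00961) and the 3 spermatocyte sets higher (set C 0.53, adjusted p 0.000834). Set F did not pass without ND 1 (edgeR adjusted p 0.121) or ND 2 (0.179), set A without HFD 2 (0.170) or ND 1 (0.0742), and set B without ND 1 (0.0742) or ND 2 (0.0736). With a replicate block set F did not pass (0.0811). At a gate limit of 2 set A stood at -0.07 and set B at 0.22 (edgeR adjusted p 0.162), set B at 0.23 with at least 2000 UMIs (0.180), and with the gate recomputed after thinning neither set A (0.283) nor set F (0.155) passed.

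Members held more UMIs in the HFD libraries. A member of HFD 1 held a median of 4153 UMIs and of HFD 2 3820, against 3357.5 in ND 1 and 3563.5 in ND 2, so the diets did not overlap. The two-sided exact permutation test gave 0.33, the smallest p that 2 libraries against 2 allow. Members with fewer than 2000 UMIs made up 3.93% and 6.06% in HFD and 15.1% and 13.5% in ND. The smaller part of shallow cells in HFD was not particular to the members. Of all kept cells, 11421 of 13543 in HFD 1 and 11714 of 14355 in HFD 2 held at least 2000 UMIs. In ND 1 it was 11276 of 15248 and in ND 2 10993 of 14581. The kept cells are also the denominator of the share of members. The UMIs of the smallest member were 1657 for HFD 1, 1486 for HFD 2, 1142 for ND 1 and 1181 for ND 2, so the lower end of the members moved with the diet. The lowest UMI count of the deposited barcodes is not given here. Its part in the difference was not tested. With the gate recomputed on cells of at least 2000 UMIs, the difference of the medians was 275 UMIs in place of 526. Of the members found there, 3672 were among the 4205. Thinned to 1000 UMIs, members had a median of 600 and 609 genes in HFD and 577 and 582 in ND, against 1632, 1548, 1347.5 and 1402 unthinned. No member was too shallow for the thinning. The share of members with a set F score above 1 was 27.6%, 32.9%, 33.1% and 30.8% in HFD 1, HFD 2, ND 1 and ND 2 and overlapped between the diets.

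**Figure D2:**
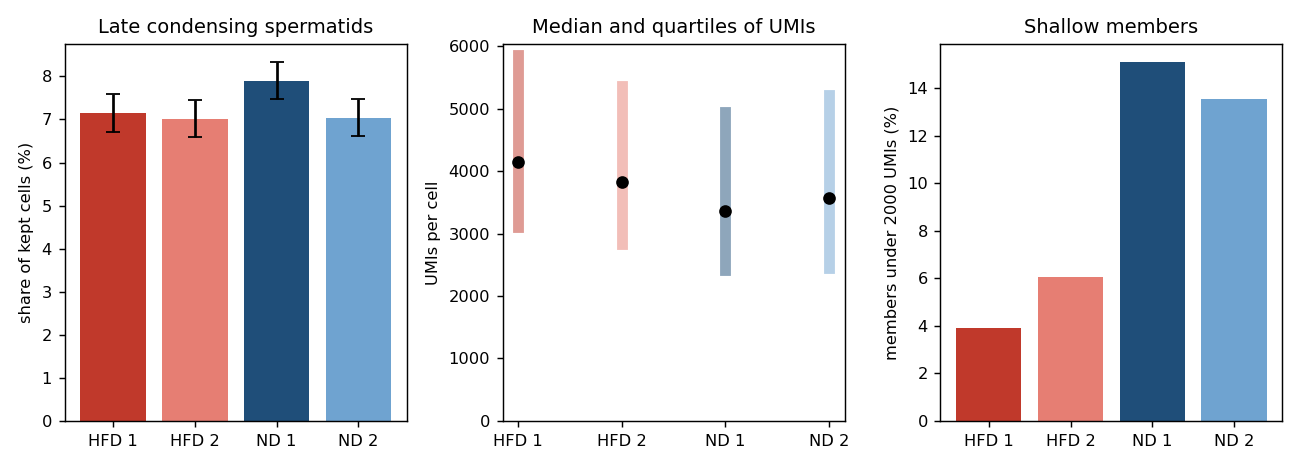
Left, share of kept cells in each library that were late condensing spermatids, with exact 95% intervals; middle, median (dot) and quartiles (bar) of UMIs per member; right, share of members under 2000 UMIs. The shares of the diets overlap, while both HFD medians lie above both ND medians.

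Between the diets few genes of the members were called. With 2 libraries per diet this does not show that the other genes were unchanged. Of 12018 genes tested on UMI sums per library, 51 were called (0.424%), 22 higher in HFD (0.183%) and 29 lower (0.241%), by edgeR's quasi-likelihood test at a Benjamini-Hochberg threshold of 0.05. At an unadjusted p under 0.05 there were 1485. In 5144 genes (42.8%) both HFD libraries lay on one side of both ND libraries, below them in 21.5% and above them in 21.3% of genes. Without TMM factors, which shift the median of all genes by 0.07, there were 190 calls, 167 higher and 23 lower, and 44 of the 190 were among the 51. Leaving out ND 1 gave 118 calls, and the other libraries 66 to 72.

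The called genes were sorted by the cells in which their level was greatest. Genes highest in a spermatocyte set made up 43.5% of the tested and 27.5% of the called genes, and of these 14, 13 were higher in HFD and 1 lower. The 8 called genes that were highest in the members (5.62% of the tested and 15.7% of the called genes) were lower in HFD, as were the 2 that were highest in set F. The largest class, 22 genes highest in a somatic comparator (19.3% of the tested and 43.1% of the called genes), went both ways, with 6 higher and 16 lower, and of 5 highest in round spermatids 3 were higher and 2 lower. Part of the 16 passed the filter on low counts through the ND libraries only, as given under the other observations. Over all tested genes the median log2 ratio was 0.06 for the 5224 that were highest in spermatocytes and -0.12 for the 675 that were highest in members.

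The split held in some other sums and not in others. With doublets left out there were 357 calls. Of those highest in members 173 were lower and 0 higher in HFD, and of those highest in spermatocytes 40 were higher and 12 lower. In the main sums genes highest in members and in spermatocytes were 5.62% and 43.5% of the tested genes. These shares were not computed for the other sums. An alternative added after seeing the data kept the members without a UMI of any Sertoli, Leydig or macrophage marker, and gave 500 calls. Of these, 189 that were highest in members were lower and 1 higher, and 107 that were highest in spermatocytes were higher and 9 lower. With the gate recomputed on cells of at least 2000 UMIs there were 26 calls, and 1 gene highest in members was lower. In the members with a set F score of 1 or less there were 29 calls, of which 1 highest in members was higher and 0 lower. With a score above 1, 0 of those highest in members were higher and 204 lower. Of those highest in a somatic comparator, 36 were then higher and 14 lower. Without TMM factors 2 genes highest in members were higher and 4 lower, without HFD 2 there were 2 and 1, and without ND 1 there were 5 and 20. The 4 late spermatocyte genes of set C summed to 234 to 246 CPM in HFD members and 190 to 204 CPM in ND members, and the 5 spermatocyte markers outside the sets to 275 to 296 and 267 to 279 CPM. The spermatocyte sets also held a larger share of the HFD libraries, and their part in these differences was not tested.

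**Figure D3:**
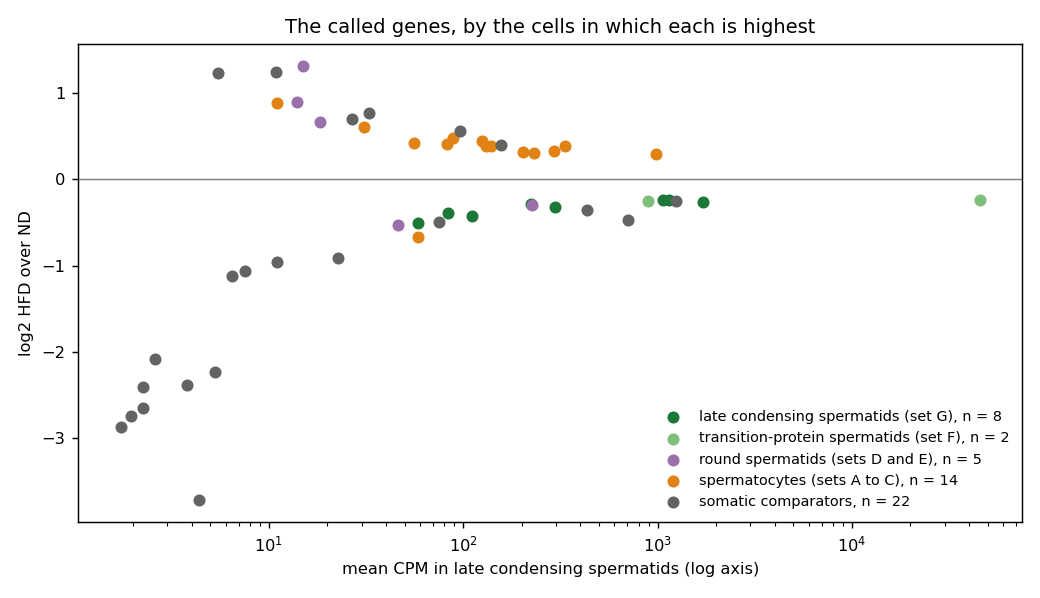
The 51 genes called between the diets, by mean level in members (CPM, log axis) and log2 ratio of HFD over ND, coloured by the cells in which each gene was highest. Genes highest in late condensing spermatids lie below 0, and the ratios beyond 1 in size belong to genes under 20 CPM.

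Among genes that late spermatids themselves express, Prm1 and Neurl1a were lower in HFD. Prm1, on the TMM-scaled CPM used for all diet values that follow, had 41598 and 41452 CPM in HFD and 50907 and 47456 CPM in ND, without overlap. The log2 ratio stood at -0.24 with an SE of 0.051 and passed (adjusted p 0.0171 by edgeR with Benjamini-Hochberg adjustment), and without ND 1 it was -0.20 with an adjusted p of 0.127. In members with a set F score of 1 or less it was -0.12 (edgeR adjusted p 0.474). Counting left-out libraries, the call was lost in 8 of 24 alternatives for Prm1 and in 7 of 23 for Neurl1a. Neurl1a had 104 and 86.2 CPM in HFD and 131 and 124 CPM in ND. For this gene the log2 ratio stood at -0.42 with an SE of 0.086 (adjusted p 0.0142 by edgeR), and without HFD 2 it was -0.30 with an adjusted p of 0.215.

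The other named genes that were highest in members and lower in HFD were 1700021J08Rik, Gm20163, Rundc3a and Eif4e. The gene model 1700021J08Rik had 50.4, 46.8, 69.5 and 68.7 CPM in HFD 1, HFD 2, ND 1 and ND 2 (log2 ratio -0.51, SE 0.096, edgeR adjusted p 0.00905), and Gm20163, also a gene model, a log2 ratio of -0.39 (SE 0.087, adjusted p 0.0299). Rundc3a, a RUN-domain protein, had 280, 244, 336 and 320 CPM (log2 ratio -0.32, SE 0.070, edgeR adjusted p 0.0228). Eif4e, the factor that binds the cap of messenger RNA, had 1066, 1033, 1213 and 1269 CPM (log2 ratio -0.24, SE 0.057, edgeR adjusted p 0.0456). For each of these genes both HFD libraries lay below both ND libraries. Counting all alternatives, the call was lost in 3 of 23 for 1700021J08Rik and 9 of 23 for Gm20163. For Rundc3a it was lost in 7 of 24 and for Eif4e in 11 of 24. Without HFD 2 none of the 4 passed (edgeR adjusted p 0.0506, 0.201, 0.267 and 0.123), and without ND 2 Gm20163 (0.110) and Eif4e (0.122) did not. Serp2, a gene of the endoplasmic reticulum that was highest in set E, had 37.8, 37.8, 54.6 and 54.7 CPM (log2 ratio -0.53, SE 0.104, edgeR adjusted p 0.0101).

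**Figure D4:**
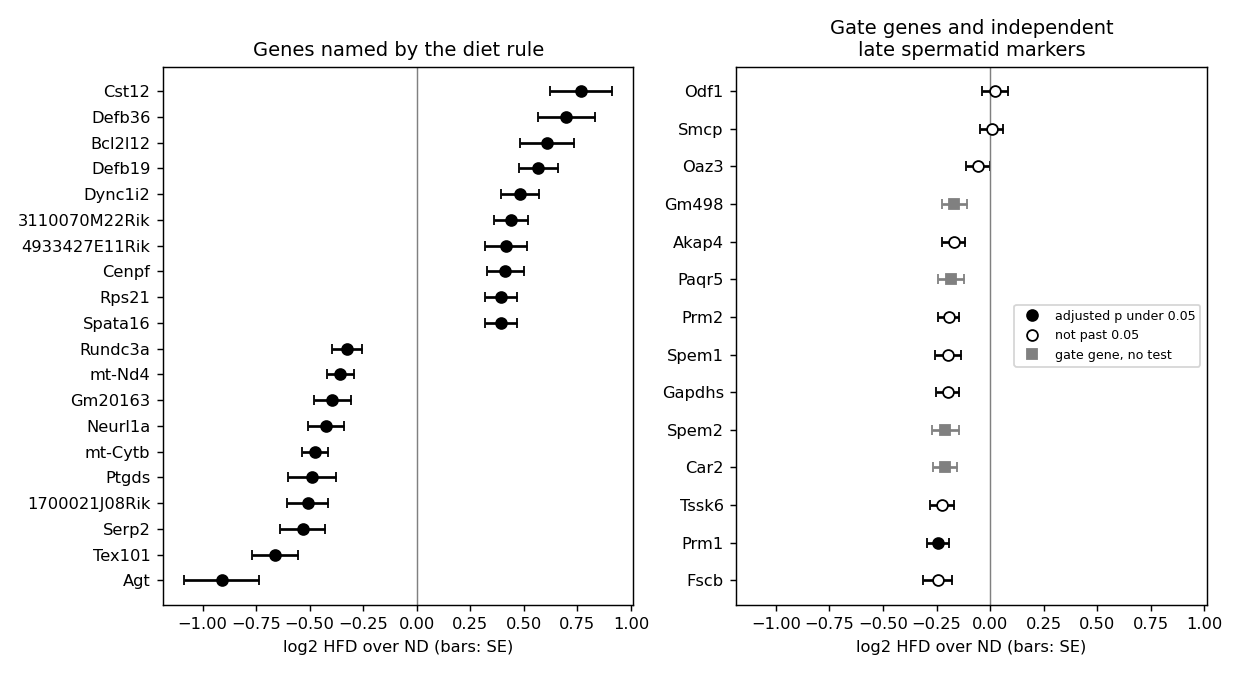
Log2 ratio of HFD over ND with its SE in members, for the genes named by the diet rule (left) and for the 4 gate genes and 10 independent markers (right); filled circles mark an edgeR adjusted p under 0.05, and grey squares the gate genes, shown without a test. Among the 10 independent markers only Prm1 passes, and 8 of the 10 ratios are below 0.

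The remaining late spermatid markers had ratios mostly below 0 that did not pass the test. Of the 10 independent markers 1 was called lower in HFD, and 7 had both HFD libraries below both ND libraries, against 21.5% of all tested genes. Their median log2 ratio was -0.19, against -0.0021 over all tested genes. Prm2 had 64666 and 62851 CPM in HFD and 74387 and 71490 CPM in ND. That is -0.19 on the log2 scale with an SE of 0.049, and the edgeR adjusted p was 0.0651. Tssk6 had 3024, 2769, 3377 and 3387 CPM (log2 ratio -0.22, edgeR adjusted p 0.0577) and Gapdhs 4092, 3822, 4448 and 4631 CPM (-0.20, adjusted p 0.0895). Without HFD 1 Prm2, Tssk6, Gapdhs and Spem1 passed, at -0.22, -0.29, -0.25 and -0.28, and Prm2 also passed without HFD 2 (-0.18) and without ND 2 (-0.23). These calls rest on 1 library of a diet, with the spread taken from the other diet alone. With 2 libraries per diet, Prm2, Tssk6, Gapdhs, Spem1, Akap4 and Fscb also passed with doublets left out (-0.25 to -0.32), in members without somatic marker UMIs (-0.25 to -0.31) and in members with a set F score above 1 (-0.30 to -0.42). Of 24 alternatives in all, Prm2 passed in 10, Tssk6 in 11, Gapdhs in 8, Spem1 and Fscb in 7 each and Akap4 in 5. Smcp (0.01) and Odf1 (0.02) had values above 0, and both had values below 0 under several of the alternatives. In at least 1 of them Smcp passed as lower in HFD (lowest edgeR adjusted p 0.0033), and Odf1 passed in none (lowest 0.078). Oaz3 stood at -0.06 and at 0.02 without TMM factors, and it passed in 1 alternative (edgeR adjusted p 0.0055).

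The 4 gate genes chose the members and their diet values are given as a description. Car2 had 1079, 1054, 1259 and 1209 CPM in HFD 1, HFD 2, ND 1 and ND 2, Spem2 687, 610, 764 and 735 CPM, Paqr5 797, 852, 986 and 885 CPM and Gm498 814, 809, 934 and 888 CPM. In each of them both HFD libraries lay below both ND libraries, and the log2 ratios were -0.17 to -0.21.

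Genes that were highest in spermatocytes made up most of the calls in the other direction. Spata16, a Golgi protein needed for the acrosome, had 147 and 149 CPM in HFD members and 113 and 113 CPM in ND members, without overlap. The log2 ratio stood at 0.39 with an SE of 0.075 (adjusted p 0.00911 by edgeR), its level in set C was 444 CPM, and it passed with each library left out. Cenpf, a kinetochore protein, had 91.7, 96.6, 73.6 and 67.7 CPM in HFD 1, HFD 2, ND 1 and ND 2 (log2 ratio 0.41, SE 0.087, edgeR adjusted p 0.0190) and 396 CPM in set C. Dync1i2, a cytoplasmic dynein chain, had 100.1, 107, 80.5 and 67.2 CPM (log2 ratio 0.48, SE 0.090, edgeR adjusted p 0.00876). Dnah8, a heavy chain of the axonemal dynein arm, had 220, 229, 182 and 178 CPM (log2 ratio 0.32, SE 0.069, edgeR adjusted p 0.0247). All of these had both HFD libraries above both ND libraries. Without ND 2 Cenpf (edgeR adjusted p 0.107), Dync1i2 (0.0821) and Dnah8 (0.0707) did not pass, and without HFD 2 Cenpf (0.106) and Dnah8 (0.148) did not.

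The RNAs 3110070M22Rik (log2 ratio 0.44, SE 0.078) and 4933427E11Rik (0.42, SE 0.097) were highest in set C, and Bcl2l12 (0.61, SE 0.125), a BCL2-like protein, was highest in set B; their edgeR adjusted p values were 0.00571, 0.0445 and 0.0160. Their levels in members were 126, 55.9 and 30.7 CPM. The first did not pass without HFD 2 (edgeR adjusted p 0.0558), the second with any library left out (0.0948 to 0.122), and Bcl2l12 without HFD 1 (0.0780) or ND 1 (0.0770). Tex101, a surface protein of germ cells highest in early spermatocytes, went the other way, with 51.5 and 38.6 CPM in HFD and 73.2 and 69.6 CPM in ND (log2 ratio -0.66, SE 0.108, edgeR adjusted p 0.00217). Members called doublets held 29.1% of the Tex101 UMIs. Its ratio was -0.23 in members without somatic marker UMIs (edgeR adjusted p 0.368) and -0.42 with Gm498 out of the gate (0.158), where it did not pass.

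Several of the largest ratios belonged to genes of somatic cells. Cst12, of the cystatin family, had 43.1 and 40.2 CPM in HFD and 30.1 and 18.3 CPM in ND (log2 ratio 0.77, SE 0.145, edgeR adjusted p 0.00905; 0.46 and adjusted p 0.121 without ND 2). Defb36 (0.70, SE 0.134) and Defb19 (0.57, SE 0.091), both of the beta-defensin family, had edgeR adjusted p values of 0.00911 and 0.00207, and without ND 2 Defb36 did not pass (0.0510). In the 2892 members with a set F score of 1 or less Cst12, Defb36 and Defb19 stood at 0.19, -0.07 and 0.07, and none passed (edgeR adjusted p 0.807, 0.944 and 0.885). In the 1313 members above 1 they stood at 1.23, 1.47 and 1.08 and passed (0.00131, 0.000172 and 8.0e-05), and the difference between these subsets was not tested. Cst12 and Defb36 were highest in the Sertoli comparator, at 708 and 477 CPM, and the 662 Cst12 UMIs lay in 39, 47, 35 and 30 members of HFD 1, HFD 2, ND 1 and ND 2. Defb19 stood at 1638 CPM in the Sertoli comparator and 1647 CPM in the Leydig comparator. All 8 Sertoli markers were detected in members, and their sum was 92.1 to 115 CPM in HFD and 80.4 to 81.7 CPM in ND. In members without somatic marker UMIs Defb19 stood at 0.14 with an edgeR adjusted p of 0.833. The part of Sertoli RNA in these results was not tested.

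Agt, the precursor of angiotensin, and Ptgds, a prostaglandin D synthase, were lower in HFD and highest in the Leydig comparator. Agt had 13.9, 17.6, 23.6 and 36.2 CPM in members of HFD 1, HFD 2, ND 1 and ND 2 (log2 ratio -0.91, SE 0.173, edgeR adjusted p 0.00911) and 3534 CPM in that comparator. Ptgds had 66.4, 57.8, 73.2 and 102 CPM (log2 ratio -0.49, SE 0.112, edgeR adjusted p 0.0389) and 10111 CPM in the comparator. Members called doublets held 51.2% of the Agt UMIs and 54.3% of the Ptgds UMIs. All 5 Leydig markers were detected in members and summed to 67.0 to 70.3 CPM in HFD and 74.9 to 82.1 CPM in ND, and all 6 macrophage markers to 37.4 to 43.6 and 48.4 to 65.3 CPM. Without ND 2 the Agt ratio was -0.58 (edgeR adjusted p 0.122) and the Ptgds ratio -0.24 (adjusted p 0.399), and without HFD 2 the Ptgds ratio was -0.40 (adjusted p 0.0782). In members without somatic marker UMIs they were -0.03 and 0.09.

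The called mitochondrial transcripts, mt-Cytb and mt-Nd4, were also lower in HFD in that subset. The complex III gene mt-Cytb had 595 and 584 CPM in HFD and 856 and 783 CPM in ND, without overlap. That is -0.48 on the log2 scale with an SE of 0.060, and the edgeR adjusted p was 4.48e-05. The complex I gene mt-Nd4 had 390, 371, 506 and 469 CPM in the same order of libraries (log2 ratio -0.36, SE 0.063, edgeR adjusted p 0.00571). In members without somatic marker UMIs the mt-Cytb ratio was -0.70 and the mt-Nd4 ratio -0.37, and with doublets left out the mt-Cytb ratio was -0.52. With a mitochondrial limit of 10% they were -0.35 and -0.25, and mt-Nd4 did not pass (edgeR adjusted p 0.0773). The members differed by their set F score: at 1 or less the ratios were -0.65 and -0.54, and above 1 they were -0.25 and -0.097, where neither passed (edgeR adjusted p 0.129 and 0.642). The difference between these subsets was not tested. Above 1 the list of 10 mitochondrially encoded genes had 1 gene called higher, 0 lower and a median of 0.21. Doublets held 25.9% of the mt-Cytb UMIs in members. These UMIs lay in 333, 348, 397 and 350 members of HFD 1, HFD 2, ND 1 and ND 2, with up to 353 in 1 cell of ND 1. The median mitochondrial share of a member was 0.1175%, 0.1197%, 0.1236% and 0.1183% in the same order, so the diets overlapped. Rps21, a ribosomal protein gene, was higher in HFD, with 177, 180, 141 and 131 CPM (log2 ratio 0.39, SE 0.073, edgeR adjusted p 0.00876), and reads shared with its pseudogenes cannot be separated here.

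Calls fell in 5 of the 17 gene lists. Of 15 tested chromatin packing genes, 1 was called lower (Prm1) and 1 higher (Spata16, known for the acrosome rather than for chromatin), with a median log2 ratio of -0.18 that was -0.11 without TMM factors. Of 26 tail genes 1 was called higher (Dnah8), of 20 mRNA storage genes 1 lower (Eif4e), of 10 mitochondrially encoded genes 2 lower (mt-Cytb and mt-Nd4), and of 83 ribosomal protein genes 1 higher (Rps21). The other 12 lists had 0 calls by edgeR in the main sums, among them 24 acrosome, 24 glycolysis, 25 lipid, 20 antioxidant, 22 chaperone and 13 apoptosis genes tested. Over all genes 0.424% were called, and each of the 5 lists with a call lay above that share on 1 or 2 genes. With doublets left out, chromatin packing had 7 genes lower and 1 higher and glycolysis 8 lower, of 357 calls over all genes. The counts of the other lists in that setting are not given here.

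**Figure D5:**
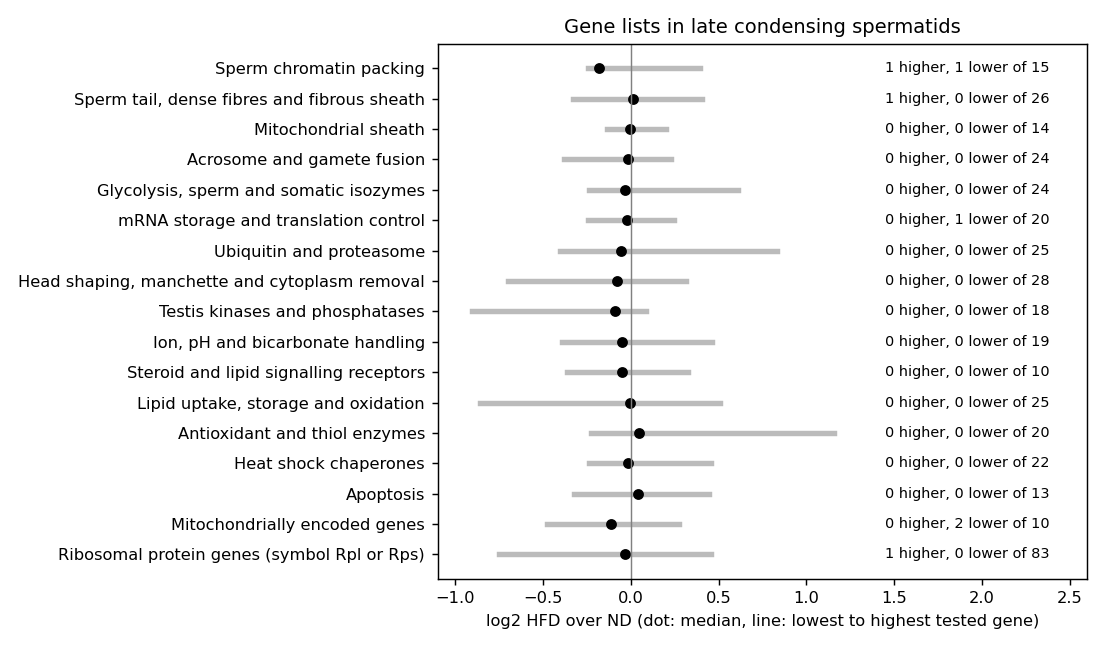
Log2 ratio of HFD over ND in members for each gene list, with the median (dot), the lowest and highest tested gene (line) and the number called by edgeR. The medians lie between -0.18 and 0.04, and 7 genes in all are called.

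The diet change was compared between members and set F in a fit with the library as a block, where 3 of 15263 genes were called (0.0197%; edgeR, Benjamini-Hochberg). Set F alone had 205 of 16022 genes called (1.28%), 129 higher in HFD (0.805%) and 76 lower (0.474%). Leaving out HFD 1, HFD 2, ND 1 or ND 2 gave 74, 73, 12 and 5 calls of the difference. Prm2 had a log2 ratio of -0.19 in members and -0.01 in set F, a difference of -0.18 (SE 0.030; edgeR adjusted p 0.00838). Without ND 1 or ND 2 the adjusted p was 0.507 and 0.621, at differences of -0.17 and -0.18. Prm1 had -0.24 in members and -0.05 in set F, a difference of -0.18 that did not pass (SE 0.040; edgeR adjusted p 0.111). Gstm1, a glutathione transferase, stood at 81.1, 71.4, 53.3 and 82.7 CPM in members, where the diets overlapped, with a ratio of 0.18 in members and -0.78 in set F. The difference was 0.97 (SE 0.135; edgeR adjusted p 0.00044). Gstm1 had 9756 CPM in the Leydig comparator, and 52.2% of its member UMIs lay in doublets. Without ND 2 its ratio in members was 0.51 and passed (edgeR adjusted p 0.0127). Without doublets its difference was -0.46 with an edgeR adjusted p of 0.348. The third gene, Aldh1a1, a retinal dehydrogenase chosen for mention after its values were seen, had 15.4 CPM in members and 10.4 CPM in set F. With 8 sums and a library block the fit kept 2 residual degrees of freedom, and without the block 0 genes were called, with 794 at an unadjusted p under 0.05.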

How the data were processed

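Droplet 3′ libraries (10x chemistry version 3, per the labels' protocols) of 4 mouse testis samples were analysed. The deposited matrices hold raw UMI counts per gene and barcode, not normalised by the authors, per the file headers and values. The headers name matrix software version 3.0.2 and the submitters' processing notes name build mm10. Aligner and annotation are not given in the sources used here. All 55450 gene identifiers matched GENCODE M21, which gave coordinates.

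A barcode was kept when it had 200 genes or more and its mitochondrial share did not exceed 20%. Doublets were called per library with Scrublet (scanpy 1.11.5, expected rate 0.1). Counts of members were summed per library, since cells are not replicates, and tested in R 4.3.3 by the quasi-likelihood method of edgeR 4.0.16 after filterByExpr and TMM scaling. The threshold was 0.05 after Benjamini-Hochberg adjustment over all tested genes. Cell numbers were tested likewise over 8 classes. Alternatives used DESeq2 1.42.0, limma 3.58.1 (log2 of CPM plus 1), other limits and left-out libraries. An SE is the log2 ratio divided by the square root of F. The tests were also run on counts simulated with the same dispersion for every gene. That dispersion was not estimated from these libraries, so the run does not measure the error rate here.

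Diet genes were named by rule: up to 10 in each direction with an adjusted p under 0.05, no overlap of the diets and at least 20 CPM, up to 3 from each list, the 15 most abundant, the 15 with the largest ratio over sets E and F, up to 5 in each direction for the interaction, and all markers. The members and lists were chosen with earlier results of these data known. Intervals cover counting error only.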

Additional observations from a re-analysis of the deposited data

Results flagged for a closer look

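In 3 genes the diet change differed between late condensing and transition-protein spermatids by the interaction test (edgeR, Benjamini-Hochberg adjusted over 15263 genes). The difference was 0.97 for Gstm1 on the log2 scale, -0.18 for Prm2 and 1.38 for Aldh1a1. For Prm2 the ratio in members was -0.19 and in set F -0.01, and the difference lay between -0.29 and -0.12 in the 22 alternatives tried, 9 of which did not pass. Gstm1 and Aldh1a1 were lower in HFD in set F (-0.78 and -1.18) and stood at 0.18 and 0.20 in members. The Gstm1 difference did not pass at a gate limit of 2 (edgeR adjusted p 0.782), in members with a set F score up to 1 (0.318) or above 1 (0.199), at 20 CPM or more (0.0935) or without the library block (0.0769). With doublets left out it was -0.46 (0.348), and of the 3 genes Prm2 alone was then called. Groups of 2 libraries were too small for a check of single outlying libraries.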

How the results depend on the processing

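The share of members (log2 ratio -0.08) lay between -0.16 and 0.0090 with a library left out, changed sign without ND 1 (0.0090), and passed only without ND 2 (-0.16). The difference of median UMIs was 526, 275 with the gate recomputed on cells of at least 2000 UMIs, and 360 to 693 with a library left out. The count of genes called between the diets, 51, was 142 and 329 at gate limits of 0.5 and 2, 357 without doublets, 29 and 397 in members with a set F score up to and above 1, 26 with at least 2000 UMIs, 27, 324 and 27 with Spem2, Paqr5 or Gm498 out of the gate, 500 without somatic marker UMIs (added after seeing the data), 66 to 118 with a library left out, 190 without TMM factors, 24 with DESeq2, 179 without a filter, 19 at 20 CPM or more and 3 beyond 1.2-fold. The cause was not tested. The count for the difference from set F, 3, was 24 at a limit of 0.5, 32 without doublets, 111 in members with a set F score above 1, 12 with at least 2000 UMIs, 17, 57 and 129 without Car2, Spem2 or Paqr5, 13 without somatic marker UMIs, 5 to 74 with a library left out, 6 without TMM factors, 27 without a filter, 0 at 20 CPM or more (edgeR; 381 at an unadjusted p under 0.05), 1 beyond 1.2-fold and 0 without the library block (794 unadjusted). Same-numbered libraries were not shown to be paired (correlation of deviations -0.077 over 4614 genes, 2 pairs), and with a replicate block 18 genes were called and the share was -0.08. Values that changed sign were, for Agt and Ptgds, 0.20 and 0.12 at a limit of 2, 0.048 and 0.023 without Spem2 and, for Ptgds, 0.088 without somatic marker UMIs. Odf1 stood at -0.094 at a limit of 2, -0.039 without doublets, -0.19 with a set F score above 1, -0.053 without Car2, -0.093 without Spem2, and -0.040 to 0.081 with a library left out (below 0 without HFD 1 or ND 2). Smcp stood at -0.11, -0.076, -0.21, -0.075 and -0.11 in the same settings, -0.017 with at least 2000 UMIs, -0.032 without somatic marker UMIs, -0.067 to 0.069 with a library left out (below 0 without HFD 1 or ND 2) and -0.0016 without a filter. Gstm1 stood at -0.29 without doublets and -0.12 to 0.51 with a library left out (its difference from set F at -0.46 without doublets), Defb36 at -0.070 with a set F score up to 1, and Oaz3 at -0.14 to 0.016 with a library left out and 0.019 without TMM factors. Of 915 values of named genes under an alternative, 656 kept direction and side of the threshold, 156 no longer passed, 75 newly passed and 28 changed sign. This tally includes the 4 gate genes, whose values are a description only. It also includes the alternative of at least 2 gate genes with a UMI, which kept the same 4205 members. Every value is unchanged there by construction, and it is 1 of the alternatives counted for single genes above. Depth limits genes under 20 CPM, which rest on few UMIs per library.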

Other observations

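Outside the named genes, 13 called genes had a log2 ratio of at least 1 in size, and all 13 had a mean under 20 CPM in members; those given here were chosen after their values were seen. Of these, 8 were highest in the macrophage comparator. Cd74, the invariant chain of antigen presentation, had 4 and 2 UMIs in members of HFD 1 and HFD 2 and 46 and 34 UMIs in ND 1 and ND 2 (log2 ratio -3.72, edgeR adjusted p 1.16e-05, the smallest of the 51). C1qa, a complement subunit, had 5, 7, 27 and 35 UMIs in members of HFD 1, HFD 2, ND 1 and ND 2, H2-Aa, a class II histocompatibility gene, 2, 4, 17 and 21 UMIs, and Lyz2, a lysozyme, 9, 9, 15 and 68 UMIs. The other genes of the 8 were C1qc, H2-Eb1, Fos and Selenop, and the part of macrophage RNA was not tested. All but Selenop had 1 to 9 UMIs in each HFD library. They passed the filter on low counts through the ND libraries only. Their direction was therefore not independent of the filter, and their values are given as a description. Members with at least 5 UMIs of macrophage markers numbered 0, 1, 3 and 3.

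The other 5 were Psmg2, Myl9, Gm3880, Igfbp7 and Ric1. Psmg2, a proteasome assembly chaperone that was highest in early round spermatids, had 116, 100, 39 and 45 UMIs in members of HFD 1, HFD 2, ND 1 and ND 2 (log2 ratio 1.32, edgeR adjusted p 0.000207). Spire1, an actin nucleator, and Ptpn2, a tyrosine phosphatase, were also higher in HFD (log2 ratios 0.90 and 0.89, edgeR adjusted p 0.0146 and 0.0365). They lie on either side of Psmg2 on chromosome 18. Spire1 is at 67488209-67610790, Psmg2 at 67641599-67654162 and Ptpn2 at 67665511-67724595. Cd74, described above, lies elsewhere on chromosome 18, at 60803848-60812652. It was lower in HFD, a direction that was not independent of the filter. Myl9 (1.24) and Gm3880 (1.24), both highest in the Sertoli comparator, were higher in HFD. Igfbp7 (-1.12) and Ric1 (-2.87), both highest in the Leydig comparator, were lower. Ric1 had 3, 1, 13 and 17 UMIs in members of HFD 1, HFD 2, ND 1 and ND 2. It passed the filter on low counts through the ND libraries only, so its value is given as a description.

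The Sertoli comparator, 508 cells with at least 10 UMIs of Sertoli markers that were not members, held 44166 CPM of the 10 late spermatid markers together, against 7140 CPM in the Leydig comparator. Among members, 19, 18, 13 and 10 cells of HFD 1, HFD 2, ND 1 and ND 2 had at least 10 Sertoli marker UMIs. Members with a UMI of any Sertoli, Leydig or macrophage marker made up 35.4%, 30.4%, 30.0% and 29.3%.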
